A study of Mus musculus with 24 samples.

Results

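The list of interferon response genes followed here used no measured value, but it was drawn up with earlier results of these data known. It holds 57 genes listed by name for their part in the response to interferons. Of these, 51 were among the 9420 genes of the deposited expression table, and Oas2, Oasl1, Oasl2, Ifi44, Rsad2 and Gbp6 can only be named. Expression was measured in Th1 effector cells, interferon-gamma-producing CD4+ T cells, of the DO11.10 mouse strain, which carries a transgenic T cell receptor. The cells were taken from peripheral CD4+ T cells isolated with CD4 beads and were restimulated with soluble antibodies to CD3 and CD28 on plates coated with antibody to hamster IgG, for up to 4 h; all groups share this strain, cell type and isolation, and no cells held for the same time without antibody are analysed here. Newly transcribed RNA labelled with 4-thiouridine (4sU, 200 µM) for 1 h was measured in 8 libraries (0, 1, 2, 3 and 4 h), total RNA in 6 (0, 1, 2 and 4 h) and ribosome-protected fragments (RP) in 8 (0, 0.5, 1, 2 and 4 h), and 2 further libraries held RNA labelled for 0.5 h (500 µM; 0 and 0.5 h, the short label). There were 2 replicates at 0, 1 and 4 h for 4sU and RP and at 0 and 4 h for total RNA, and a single library in every other group. Whether a replicate is another animal or another culture is not stated in the labels, and p-values cover no more than the spread among these libraries.

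Type I interferons bind a receptor made of the chains IFNAR1 and IFNAR2 and act through ISGF3, a complex that holds STAT2 and IRF9 and binds the interferon-stimulated response element (ISRE). Interferon-gamma, the signature cytokine of Th1 cells, binds IFNGR1 and IFNGR2 and acts through the gamma-activated sequence (GAS), in part by way of the transcription factor IRF1. The genes induced by these pathways encode nucleic acid sensors, antiviral proteins, the ubiquitin-like protein ISG15 with its protease USP18, guanylate-binding proteins (GBPs) and immunity-related GTPases (IRGs) that attack the vacuoles of intracellular pathogens, and the machinery that loads peptides on MHC class I.

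Promoter sequences are shown for 4 members that the results turn on: Gbp5, which rose, Gbp2, which fell, Isg15, whose level differed between the replicates, and Irf1, the member with the highest ratio of new to total RNA at rest. Each is the stretch of 250 bases before a RefSeq transcription start (GRCm38.p6), 5′ to 3′ on the strand of the gene, with matches to an ISRE core (GAAA, any 2 bases, GAAA, on either strand) or a GAS (TTCNNNGAA, a palindrome) in capitals.
Gbp5, chr3:142496684-142496933, plus strand: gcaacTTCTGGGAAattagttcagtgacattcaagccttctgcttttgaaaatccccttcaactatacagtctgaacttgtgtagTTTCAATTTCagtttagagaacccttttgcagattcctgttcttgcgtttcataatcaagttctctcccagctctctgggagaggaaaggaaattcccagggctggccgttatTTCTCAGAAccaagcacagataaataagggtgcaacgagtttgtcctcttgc
Gbp2, chr3:142620413-142620662, plus strand: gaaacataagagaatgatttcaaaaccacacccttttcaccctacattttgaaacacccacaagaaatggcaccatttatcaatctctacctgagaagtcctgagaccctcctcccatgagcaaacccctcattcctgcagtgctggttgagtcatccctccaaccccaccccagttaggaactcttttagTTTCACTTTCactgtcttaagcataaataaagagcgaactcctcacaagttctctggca
Isg15, chr4:156200819-156201068, minus strand: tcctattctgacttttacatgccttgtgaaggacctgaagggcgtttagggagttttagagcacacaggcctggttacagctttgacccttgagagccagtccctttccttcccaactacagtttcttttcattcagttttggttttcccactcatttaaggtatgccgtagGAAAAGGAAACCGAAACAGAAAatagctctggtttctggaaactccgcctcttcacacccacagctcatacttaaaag
Irf1, chr11:53769764-53770013, plus strand: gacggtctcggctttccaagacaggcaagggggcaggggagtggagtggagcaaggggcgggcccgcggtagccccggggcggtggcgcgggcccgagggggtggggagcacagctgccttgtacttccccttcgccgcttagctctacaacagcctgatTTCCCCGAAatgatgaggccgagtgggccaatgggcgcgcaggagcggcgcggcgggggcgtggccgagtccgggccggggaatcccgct
The Gbp5 sequence holds an ISRE core from base -165 to base -156, counted from the start, and GAS matches that begin at bases -245 and -52. Gbp2 holds 1 ISRE core, from base -59 to base -50. Isg15 holds 3 overlapping ISRE cores that begin at bases -78, -72 and -66, and Irf1 holds a GAS from base -90 to base -82 and no ISRE core. In GENCODE M21, on the same build, the genes span chr3:142493978-142522344 (Gbp5), chr3:142620602-142638008 (Gbp2), chr4:156199424-156200818 (Isg15) and chr11:53770014-53778374 (Irf1). The Gbp5 sequence and the end of that of Gbp2, with its ISRE core, thus lie inside the annotated gene, and the others just before it.

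A RefSeq start was matched for 39 of the 51 members, and windows from 250 bases before to 50 bases after it were searched on both strands. An ISRE core was found for 21 of the 39 (53.8%), against 3.44% of all 32851 windows and 3.73% of the 7562 table genes with a window. A GAS was found for 17 (43.6%), against 8.30% of all windows and 8.49% of those table genes. Both motifs were found for 9 (23.1%), against 0.454% and 0.542%. A gene can have several starts, and overlapping matches were counted as 1 gene. Among members whose 4sU level at 4 h was above that at 0 h in both replicates, 5 of 8 held an ISRE core, among those below in both, 12 of 21 did, and among those that went opposite ways, 4 of 10 did. A match is one of letters and not a measured binding site.

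Gene levels are FPKM, fragment counts divided by gene length and by the size of the library. The depth could be inferred for 11 of the 24 libraries, at 8.89 to 26.2 M reads for RP, 14.9 and 12.7 M for the short label and 4.87 M for total RNA at 0 h replicate 2; that of the others is unknown. The defining markers of CD4+ T cells (6 of 7 in the table) were present, at summed levels in total RNA of 726 to 1149 FPKM. Those of Th1 cells (7 of 7), a list that includes the induced gene Ifng, summed to 465 to 7630 FPKM in replicate 1 and to 350 to 2036 in replicate 2. Markers of regulatory T cells (6 of 6), of which Il2ra and Tnfrsf18 rose by 4 h, summed to 344 to 745 FPKM in replicate 1 and to 387 to 771 in replicate 2. Markers of CD8+ T cells (6 of 6 in the table) summed to 282 to 368 FPKM in replicate 1 and to 29.3 to 33.3 in replicate 2, and 5 of the 6 were higher in replicate 1 in all 8 replicated groups. Dendritic cell markers, of which the table held 4 of 9, namely MHC class II genes and their invariant chain, summed to 28.9 to 75.6 FPKM in replicate 1 and to 21.1 to 24.3 in replicate 2. B cell markers (5 of 7) reached 14.8 FPKM in replicate 1 and 3.15 in replicate 2, and the table held 1 of 8 macrophage markers (Cd68, at most 1.70 FPKM) and 1 of 7 NK cell markers (Eomes, at most 13.8). In bulk RNA, fewer cells of a type and less RNA per cell cannot be told apart. The part of other cells in the results below was not tested.

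At rest the members spanned a wide range of levels. In total RNA at 0 h, their median of the mean of both replicates was 15.9 FPKM, against 8.06 for all genes, with 6 members at 100 FPKM or more and 15 below 5. The highest was B2m, the light chain of MHC class I, at 2471 and 1347 FPKM in replicates 1 and 2. Next came Gbp2 (409 and 269) and the immunity-related GTPase Igtp (384 and 263), which did not differ beyond the spread of their replicates. Ifngr1 (112 and 155), the class I chaperone Tapbp (148 and 78.1) and Gbp7 (111 and 92.7) came below them and overlapped. The lowest were Ifngr2, the partner of Ifngr1 in the interferon-gamma receptor, at 0.59 and 0.74 FPKM, and the RNA-sensing enzyme Oas1a, at 1.46 and listed at 0. Both chains of the type I receptor were intermediate, with Ifnar1 at 31.9 and 32.9 FPKM and Ifnar2 at 6.58 and 6.38.

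The replicates differed in these genes before and after restimulation. Of the 51 members, 17 were higher in replicate 1 in all 8 replicated groups (against 11.1% of all genes) and 3 were lower in all 8 (Ifngr1, Ifnar1 and Ifit2, against 10.9%). The median member was 0.25 to 0.49 higher in replicate 1 on the log2(FPKM + 1) scale, depending on the group, where the median of all genes lay between -0.08 and 0.11. By role, 4 of the 5 class I genes, 5 of the 11 antiviral effectors, 4 of the 8 genes of the ISG15, ADP-ribosylation and TRIM group and 3 of the 7 sensors were higher in all 8, and none of the 6 GBPs or 5 IRGs was. The widest gap was that of Rtp4, a chaperone for membrane receptors, with a median difference of 1.78, followed by Isg15 at 1.69. Every gene of the table reached about 1 FPKM in some library of each kind. In replicate 2 Rtp4 and Oas1a reached at most 0.38 and 0.02 FPKM in total RNA, and Mx1 at most 0.83 in RP. These members of the 17 are thus in the table through replicate 1, and their gap is in part set by that limit. Isg15 in 4sU RNA was 4.83, 10.8 and 19.4 FPKM in replicate 1 at 0, 1 and 4 h, and 1.32, 2.20 and 2.89 in replicate 2, so no library of replicate 2 reached the lowest of replicate 1. Ifngr1 went the other way, at 226, 161 and 76.6 FPKM in replicate 1 and 343, 300 and 191 in replicate 2 at the same times. The short-label libraries, a separate pair, held Isg15 at 1.24 and 1.65 FPKM. They held Gzma, which is on the CD8+ T cell list, at 1.84 and 0.71, against 73.6 for Gzma in 4sU replicate 1 and 0.66 in replicate 2 at 0 h. Markers of other cells moved with this difference: 5 of the 6 CD8+ T cell markers (median difference 1.57) and 3 of the 4 dendritic cell markers (1.79) were higher in replicate 1 in all 8 groups. Of the 5 B cell markers 1 was (0.61), as were 1 of the 7 Th1 cell markers (0.46) and 1 of the 6 CD4+ T cell markers (0.14). Of the 6 regulatory T cell markers 0 were, and 1 was lower in all 8 groups (-0.09). The table held 1 of 7 NK cell markers, so NK cells were not told apart from CD8+ T cells. Its 4 dendritic cell markers were MHC class II genes and their invariant chain, so dendritic cells were not told apart from B cells. The part of these cells in the difference was not tested.

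**Figure D1:**
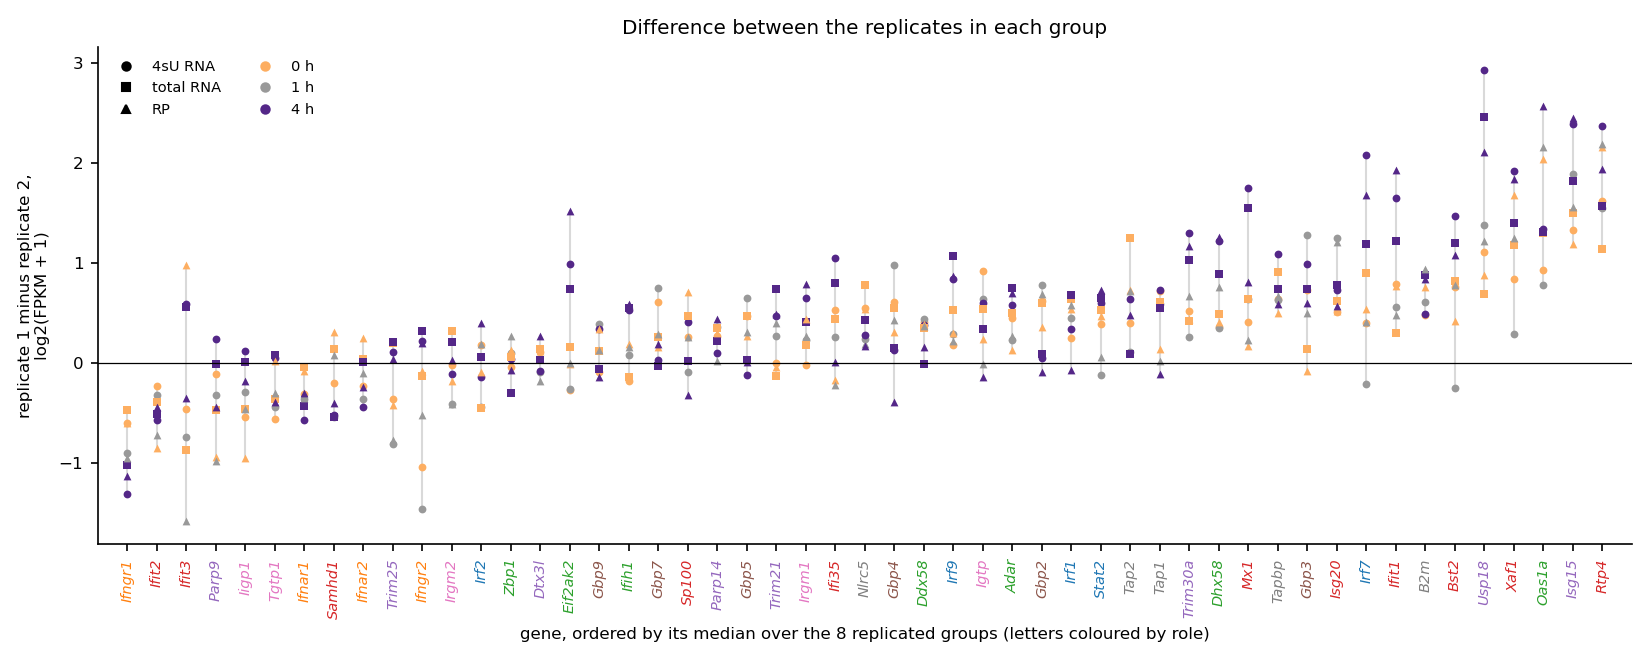
Difference between replicates 1 and 2 for each member (points, log2(FPKM + 1) scale) in the 8 groups with both replicates. Most points lie above 0 in every group, with 32 to 42 of the 51 members higher in replicate 1.

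By 4 h a small number of members had changed, 2 higher and 7 lower in 4sU RNA, in which more genes of the whole table were also lower than higher. Changes are differences of log2(FPKM + 1), given ± SE with 2 libraries per time, and a change was called at an adjusted p below 0.05. In 4sU RNA limma called 2 of the 50 members tested higher (against 14.4% of all genes) and 7 lower (against 18.9%). In total RNA 1 of 50 was called higher (against 6.47%) and 5 lower (against 7.02%), and in RP 2 of 48 were called higher (against 12.1%) and 6 lower (against 12.9%). The share of members called was at or below that of all genes in each case apart from the lower calls in total RNA. With the replicate number as a block, which removes the difference between replicates described above, the counts became 7 higher and 14 lower in 4sU (all genes 23.3% and 35.4%), 5 and 10 in total RNA (16.6% and 23.3%) and 6 and 13 in RP (21.3% and 26.7%). In total RNA the block leaves 1 residual degree of freedom. An adjusted p with the block there rests mostly on the spread shared by all genes and little on that of the gene itself. Gbp5 was called higher, and Irf2, Ifit2, Samhd1, Sp100 and Gbp2 lower, in all 3 kinds of library, as were 491 genes higher and 516 lower in the whole table. Cell type markers changed over the same time. Of the 6 CD4+ T cell markers, 4 fell in 4sU (median change of the list -0.82), 0 changed in total RNA (-0.25) and 1 fell in RP (-0.39). The 4 dendritic cell markers had median changes of -0.85, -0.93 and -1.24 in the same order, with none called, and 3 of the 4 called lower with the block in each kind. The B cell markers tested (2, 3 and 5) had medians of -1.21, -0.70 and -1.74, with none called, and 2, 3 and 3 called lower with the block. Of the 6 CD8+ T cell markers, 1 fell in 4sU and 0 changed in the other kinds (medians -0.31, 0.05 and -0.35), and with the block 1 was higher and 3 were lower in 4sU, 1 and 1 in total RNA and 0 and 2 in RP. Of the Th1 cell markers, Cxcr3 (-3.2, -2.5 and -3.2 in 4sU, total RNA and RP) and Il18r1 (-1.4, -1.4 and -1.7) were called lower. Ifng, on the same list, was called higher in all 3 kinds, as was Eomes, on the NK cell list (3.3, 2.6 and 2.8). The part of these shifts in the members' changes was not tested. The median change of the members was -0.18 in 4sU, -0.20 in total RNA and -0.19 in RP beside -0.16, -0.10 and -0.10 for all genes. Median-of-ratios scaling moved the median of all genes in 4sU from -0.16 to -0.01, and the calls over all genes from 1334 higher and 1755 lower to 1646 and 1372. In total RNA it moved them from 587 and 637 to 786 and 552.

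**Figure D2:**
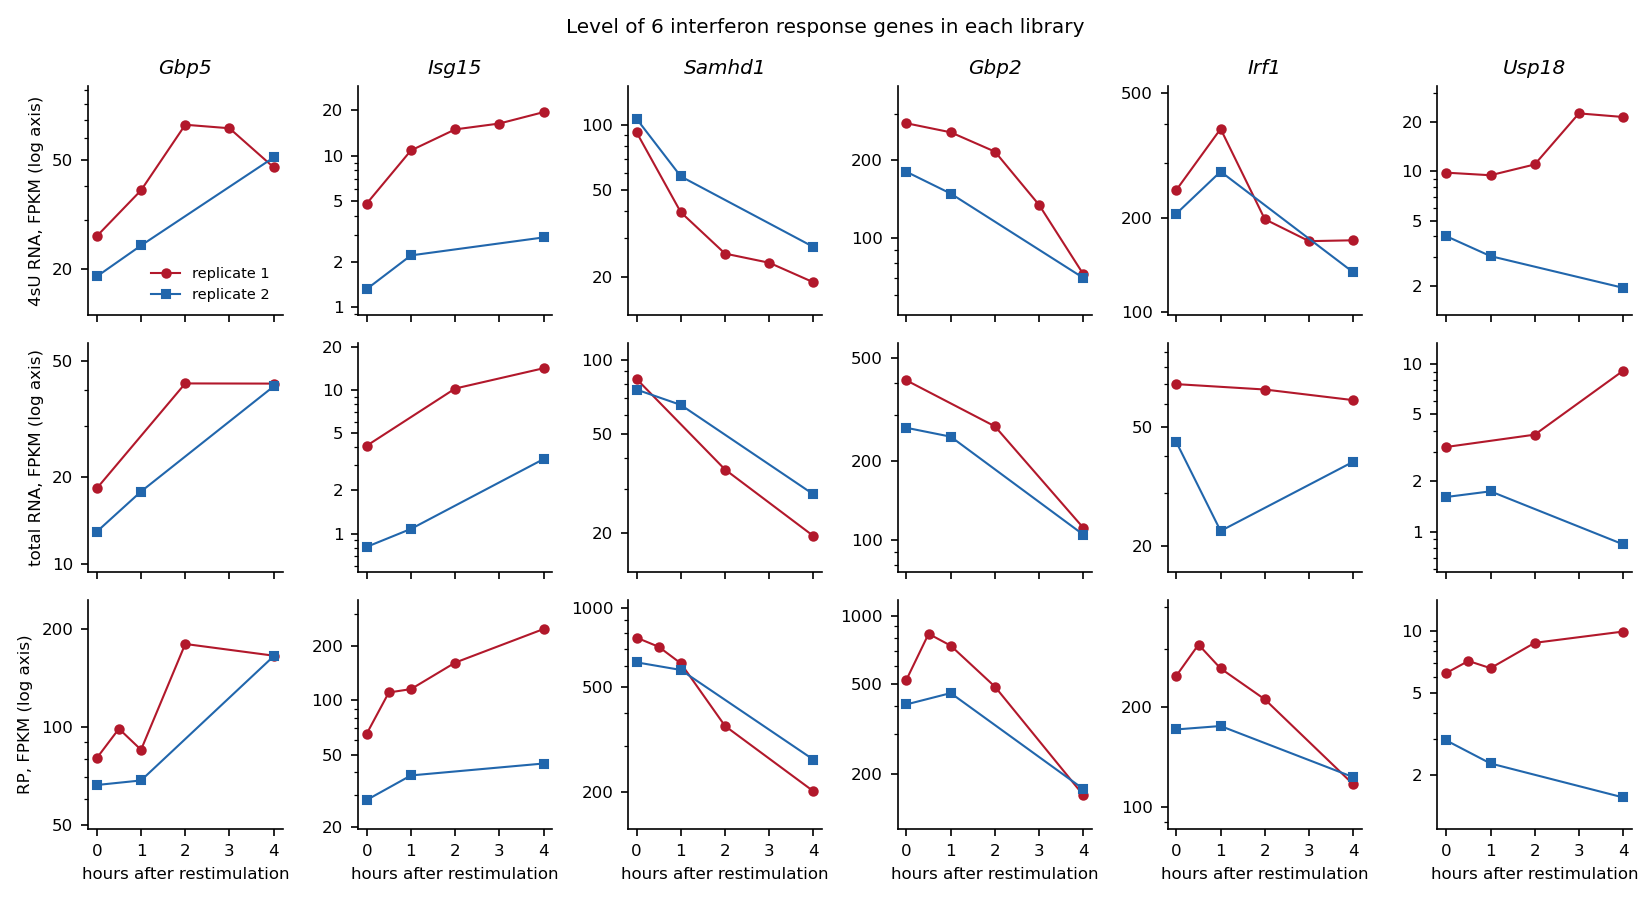
Levels of 6 members (FPKM, log axis) against hours of restimulation in 4sU RNA, total RNA and RP (rows), with replicate 1 in red and replicate 2 in blue, each point 1 library. Gbp5 lies higher and Samhd1 and Gbp2 lower at 4 h in both replicates, while Usp18 at 4 h lies above its 0 h level in replicate 1 and below it in replicate 2.

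Of the 4 receptor chains, Ifnar1 was the one called. Ifngr1, the ligand-binding chain for interferon-gamma, in total RNA was 112 and 155 FPKM at 0 h and 41.1 and 84.4 at 4 h; both libraries at 4 h lay below both at 0 h. Its change was -1.15 ± 0.38 (log2, SE) in total RNA, -1.20 ± 0.53 in 4sU and -1.28 ± 0.49 in RP, and it was not called in any of the 3 (adjusted p 0.0900, 0.126 and 0.108), although it was with the replicate block (adjusted p 4.32e-06, 0.00226 and 0.00197; the block leaves 1 residual degree of freedom in total RNA). Ifnar1, a chain of the type I receptor, was 74.8 and 92.8 FPKM in 4sU at 0 h and 36.5 and 54.8 at 4 h. It fell in 4sU by 0.88 ± 0.27 (adjusted p = 0.0484) and in RP by 0.88 ± 0.21 (adjusted p = 0.0303), and was at -0.67 ± 0.25 in total RNA. The Ifnar1 call in 4sU was lost without replicate 1 at 4 h or without either library at 0 h (adjusted p up to 0.226), under median-of-ratios scaling (0.0738), and in RP whichever of the 4 libraries was left out (0.0594 to 0.148). Ifnar2 was at -0.20 ± 0.23 in 4sU and -0.57 ± 0.19 in RP, and Ifngr2, near the lower limit of the table, was at 0.68 ± 0.54 in 4sU and 0.58 in total RNA, with neither called. Ifnar2 was called lower in RP with the replicate block (adjusted p = 0.0313), which made 3 of the 3 chains tested there, and in total RNA Ifnar1 was called lower (0.00929) and Ifngr2 higher (0.0282).

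Of the 5 transcription factors, Irf2 fell in each kind of library. Irf2, a relative of Irf1 that binds the same element and can oppose it, was 29.6 and 26.0 FPKM in 4sU at 0 h and 11.7 and 12.9 at 4 h, with no overlap. The change was -1.11 ± 0.20 in 4sU (adjusted p = 0.0105), -1.13 ± 0.24 in total RNA (0.0296) and -1.15 ± 0.21 in RP (0.0162). It was called with 1 of 4 libraries left out in each kind and lost without the other three, namely replicate 1 at 4 h or either 0 h library in 4sU, either 4 h library or replicate 2 at 0 h in total RNA, and replicate 2 at 4 h or either 0 h library in RP (adjusted p up to 0.0646, 0.158 and 0.0646). Irf1 took another course: in 4sU it was 246 and 207 FPKM at 0 h, 385 and 282 at 1 h, and 170 and 134 at 4 h, with single values of 198 at 2 h and 169 at 3 h. Both libraries at 1 h thus lay above both at 0 h, and both at 4 h below. Its change was 0.54 ± 0.29 at 1 h and -0.58 ± 0.29 at 4 h against 0 h, neither called, and the difference of -1.12 ± 0.29 between 4 h and 1 h was called (adjusted p = 0.0369), a call lost whichever of the 4 libraries was left out (0.0786 to 0.142) and under median-of-ratios scaling (0.0623). In the short-label pair Irf1 was 330 FPKM at 0 h and 571 at 0.5 h, with 1 library each. Irf7, the amplifier of the type I response, was 9.70 and 7.10 FPKM in 4sU at 0 h and 11.1 and 1.86 at 4 h, which sets replicate 1 above and replicate 2 below its start. Irf9 (-0.48 ± 0.30 in 4sU) and Stat2 (0.55 ± 0.25) were not called. Stat2 was called higher with the replicate block (adjusted p = 0.0338) and Irf1 lower (0.0292) in 4sU at 4 h, and Irf1 (-0.78, 0.0202) and Irf9 (-0.81, 0.0140) were called lower in RP.

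The 11 antiviral effectors held 4 of the 9 calls in 4sU, 3 of the 6 in total RNA and 4 of the 8 in RP. Samhd1, an enzyme that depletes the nucleotides needed for reverse transcription, was 92.6 and 107 FPKM in 4sU at 0 h, 39.6 and 58.0 at 1 h, and 18.8 and 27.4 at 4 h. Total RNA followed from 83.5 and 75.6 to 19.4 and 28.6 FPKM, and RP from 770 and 621 to 202 and 266. In all 3 kinds the libraries at 4 h lay below those at 0 h, and the single 4sU libraries at 2 and 3 h (25.6 and 23.2) lay between 1 and 4 h in replicate 1. The change at 4 h was -2.08 ± 0.27 in 4sU (adjusted p = 0.00424), -1.71 ± 0.27 in total RNA (0.0140) and -1.57 ± 0.24 in RP (0.00987). The 4sU call was kept whichever of the 4 libraries was left out (adjusted p 0.0104 to 0.0327), the total RNA call was lost without replicate 1 at 4 h (0.0982), and the RP call without replicate 1 at 4 h or at 0 h (up to 0.0626).

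Ifit2, which binds viral RNA, was 28.5 and 33.5 FPKM in 4sU at 0 h and 6.85 and 10.7 at 4 h. Sp100, a component of PML nuclear bodies, was 41.9 and 34.9 and then 12.6 and 9.26. Neither gene had overlapping libraries. Ifit2 changed by -1.73 ± 0.25 (adjusted p = 0.00524) and Sp100 by -1.73 ± 0.20 (0.00346) in 4sU, calls kept whichever library was left out. In total RNA the changes were -1.39 ± 0.27 and -1.10 ± 0.25 and in RP -1.65 ± 0.38 and -1.13 ± 0.29, all called (adjusted p 0.0227 and 0.0344, then 0.0294 and 0.0389). For Ifit2 these calls were lost without replicate 1 at 4 h or replicate 2 at 0 h in total RNA, and without either 4 h library or replicate 2 at 0 h in RP. For Sp100 they were lost in both kinds without either 4 h library or replicate 1 at 0 h (adjusted p up to 0.183). The other IFIT genes in the table had lower levels and were not called: Ifit1 was at -0.53 ± 0.57 and Ifit3 at -1.01 ± 0.34 in 4sU, and Ifit3 RP levels rest on 0 to 50.8 implied reads per library. Ifit3 was called lower with the replicate block in 4sU (adjusted p = 0.0179) and total RNA (-0.92, 0.000770).

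Isg20, an exonuclease that degrades RNA, was the member with the largest increase in 4sU. It was 2.29 and 1.32 FPKM at 0 h, 14.3 and 5.41 at 1 h, and 12.3 and 7.01 at 4 h, with 15.2 and 10.7 in the single libraries at 2 and 3 h. All libraries after restimulation lay above both at 0 h. Isg20 rose by 1.90 ± 0.46 at 4 h in 4sU (adjusted p = 0.0250) and was at 1.01 ± 0.34 in total RNA (0.0918) and 1.49 ± 0.45 in RP (0.0582), in both of which it was called with the replicate block. The 4sU call was lost without replicate 1 at 4 h or either 0 h library (up to 0.119). Ifi35, an interferon-induced partner of the protein NMI, was 55.3 and 62.5 FPKM in RP at 0 h and 108 and 107 at 4 h; it rose in RP by 0.86 ± 0.18 (adjusted p = 0.0219), a call lost whichever of the 4 libraries was left out (0.0601 to 0.104), and was at 1.12 ± 0.37 in 4sU (0.0606). Bst2, which tethers budding virions, was at 1.53 ± 0.50 in 4sU (0.0595) but 0.01 ± 0.45 in total RNA. With the replicate block Ifi35 was also called higher in 4sU (adjusted p = 0.00174) and total RNA (0.000144), Bst2 in 4sU (0.00612), and Rtp4 in 4sU (0.81, 0.0135) and RP (0.70, 0.0187), while Xaf1 was called lower in RP (-0.78, 0.0130). Rtp4, Mx1 and Xaf1 were within 1 SE of 0 in 4sU.

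The GBPs, GTPases induced by interferon-gamma, went different ways within 1 family. Gbp5, known for its part in inflammasome activation, was 26.3 and 18.7 FPKM in 4sU at 0 h, 38.6 and 24.3 at 1 h, and 46.9 and 51.0 at 4 h, with 67.1 and 65.2 in the single libraries at 2 and 3 h. In total RNA it went from 18.3 and 12.9 to 41.9 and 41.0 FPKM, and in RP from 80.3 and 66.3 to 166 and 165. The libraries at 4 h lay above those at 0 h in each kind. The change was 1.11 ± 0.27 in 4sU (adjusted p = 0.0263), 1.37 ± 0.25 in total RNA (0.0194) and 1.17 ± 0.20 in RP (0.0132). The 4sU call was lost whichever of the 4 libraries was left out (0.0525 to 0.148), and those in total RNA and RP without either 4 h library or replicate 2 at 0 h (up to 0.130 and 0.0745). Gbp2, the most abundant GBP at rest, was 277 and 180 FPKM in 4sU at 0 h, 256 and 148 at 1 h, and 72.4 and 70.1 at 4 h. In RP it was 522 and 406 at 0 h, 737 and 456 at 1 h, and 162 and 172 at 4 h, so that in each replicate the library at 1 h lay above and that at 4 h below its start. Gbp2 changed by -1.63 ± 0.35 in 4sU (adjusted p = 0.0167), -1.61 ± 0.29 in total RNA (0.0193) and -1.46 ± 0.30 in RP (0.0203); in each kind the call was lost without either 4 h library or replicate 1 at 0 h (up to 0.0878, 0.115 and 0.108). Gbp3, Gbp7 and Gbp9 were lower at 4 h than at 0 h in all 6 within-replicate changes but not called, with 4sU changes of -0.71 ± 0.53, -0.70 ± 0.32 and -0.55 ± 0.21. All of these were called lower in 4sU with the replicate block (adjusted p 0.00927, 0.0158 and 0.0190), which made 4 of the 6 GBPs with Gbp2; Gbp7 (0.0117) and Gbp9 (0.00993) were also called lower in total RNA, and Gbp9 (0.0258) in RP. Gbp4, at 76.7 and 50.1 FPKM in 4sU at 0 h and 62.4 and 56.8 at 4 h, was at -0.06 ± 0.37. The GBP genes lie in clusters on chromosome 3 (Gbp2, Gbp3, Gbp5 and Gbp7) and chromosome 5 (Gbp4 and Gbp9, whose annotated spans overlap) and are alike in sequence, and how reads shared between them were counted is not given in the sources used here.

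In the group of ISG15 and its partners, Trim21, a cytosolic antibody receptor, was the 1 gene called. Trim21 was 32.8 and 32.9 FPKM in 4sU at 0 h and 23.5 and 16.8 at 4 h. It fell by 0.70 ± 0.21 in 4sU (adjusted p = 0.0477), a call lost without replicate 2 at 4 h or either 0 h library (up to 0.179), under median-of-ratios scaling (0.126) and with 1 prior variance for all genes (0.0535). Isg15 was higher at 4 h in every within-replicate change, by 1.80 and 0.75 in 4sU, 1.58 and 1.25 in total RNA and 1.91 and 0.65 in RP for replicates 1 and 2. Over both replicates it was at 1.28 ± 0.93 in RP, 1.41 ± 0.67 in total RNA and 1.27 ± 0.96 in 4sU. Isg15 was not called (adjusted p 0.344, 0.197 and 0.334), although it was with the replicate block (adjusted p 0.0109, 8.94e-08 and 0.00250). The block leaves 1 residual degree of freedom in total RNA, so the small value there rests mostly on the spread shared by all genes. Usp18, the protease that removes ISG15 and restrains type I receptor signalling, was 9.80 and 4.01 FPKM in 4sU at 0 h and 21.4 and 1.94 at 4 h. Its 4 h libraries thus lay on either side of those at 0 h, and its mean change was 0.14 ± 0.98.

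No IRG, class I gene or sensor was called at 4 h in any kind of library without the replicate block. With it, the sensor Ddx58 was called lower in 4sU (adjusted p = 0.00641), the sensor Ifih1 higher in RP (0.0141) and the class I gene Nlrc5 lower in RP (0.0239), and no IRG was called. Of the IRGs, GTPases that act on pathogen vacuoles, Igtp was at -0.37 ± 0.50 in 4sU and -0.36 ± 0.22 in RP and Tgtp1 at 0.41 ± 0.24 in total RNA, which were the largest of their role. Igtp in 4sU was 896 and 474 FPKM at 0 h and 623 and 410 at 4 h, with overlap between the times. Irgm1 and Iigp1 were at -0.05 ± 0.24 and 0.08 ± 0.23 in 4sU. Of the class I genes, Tap1, a subunit of the peptide transporter, was at -0.49 ± 0.32 in total RNA and Nlrc5, the transactivator of class I genes, at -0.22 ± 0.24 in 4sU and -0.63 ± 0.24 in RP. B2m and Tapbp, the chaperone that bridges class I and the transporter, were at -0.21 ± 0.44 and -0.12 ± 0.43 in 4sU. Of the sensors, the RNA helicase Ddx58 (RIG-I) was at -0.60 ± 0.25 in 4sU, and Ifih1 (MDA5) at 0.40 ± 0.26 in total RNA and 0.78 ± 0.25 in RP. The copies Tgtp1 and Tgtp2 are nearly identical, and their 4sU changes differed (0.07 and -1.51), so the split of reads between them is uncertain.

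**Figure D3:**
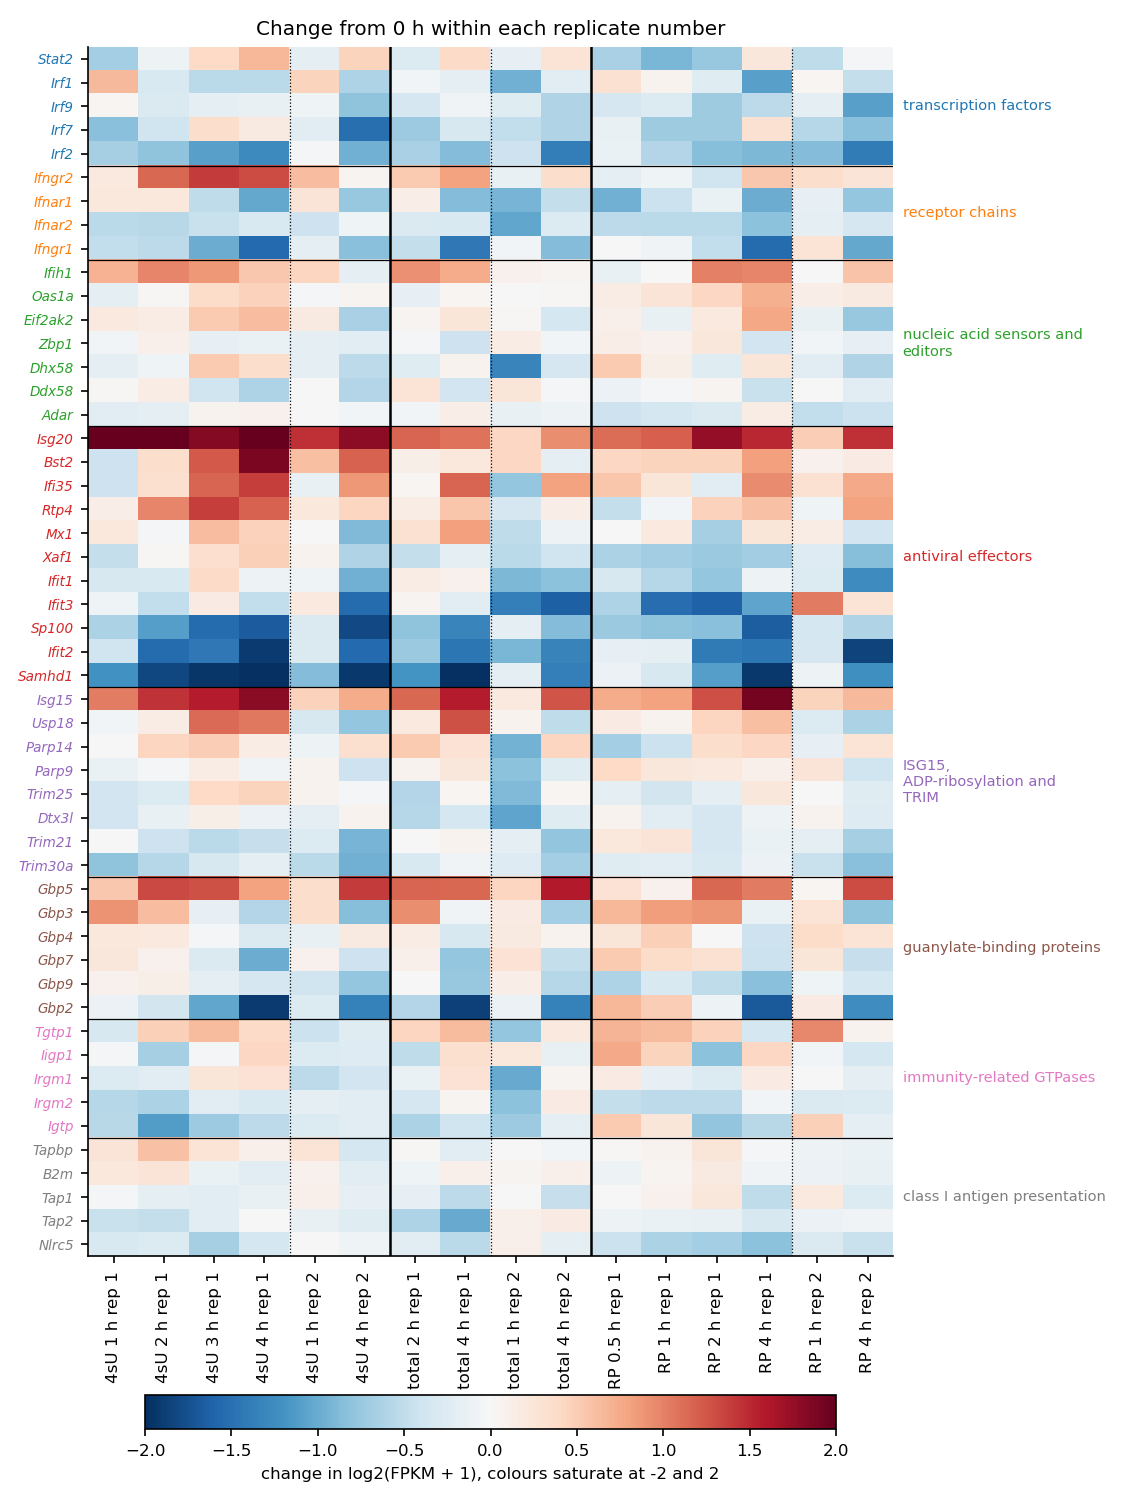
Change from 0 h within each replicate number (log2(FPKM + 1), colours saturate at -2 and 2) for the 51 members (rows, by role) in each kind of library and time (columns). Samhd1, Sp100, Ifit2 and Gbp2 are lower and Gbp5 and Isg15 higher in all 6 columns at 4 h.

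Counted within each replicate number, 8 members were higher at 4 h than at 0 h in all 6 changes (2 replicates in 3 kinds; against 23% of all genes): Ifngr2, Oas1a, Isg20, Ifi35, Rtp4, Isg15, Parp14 and Gbp5. Some of these rises lie near 0 FPKM. Oas1a in replicate 2 went from 0.03 to 0.07 FPKM in 4sU, 0 to 0.02 in total RNA and 0 to 0.13 in RP (0 and 2 implied reads). In RP, Ifngr2 rested on 7 to 37.8 implied reads per library at these times, and Rtp4 in replicate 2 on 2.99 and 16. Another 19 were lower in all 6 (against 34.6%), among them 3 transcription factors (Irf1, Irf2 and Irf9), 3 receptor chains (Ifnar1, Ifnar2 and Ifngr1), 4 of the 6 GBPs, Igtp, Tap1 and Nlrc5. A further set went up in replicate 1 and down in replicate 2. There were 13 such members in 4sU (25.5%, against 6.26% of all genes), 10 in total RNA (19.6%, against 8.97%) and 11 in RP (21.6%, against 7.74%), while 2, 2 and 3 went the opposite way (against 8.24%, 11.8% and 10.9%). Adar, which edits RNA, Dhx58 (LGP2), Eif2ak2 (PKR), Iigp1, Mx1 and Usp18 did so in all 3 kinds (against 0.881%). For Mx1 the RP levels were low, from 0.86 to 1.21 FPKM in replicate 1 and from 0.65 to 0.26 in replicate 2. Usp18 was at 1.06 in replicate 1 and -0.77 in replicate 2 in 4sU, and Eif2ak2, the kinase that halts translation on sensing double-stranded RNA, by 0.61 and -0.64. In replicate 1 the 4sU levels of Usp18 were 9.80, 9.45, 11.0, 22.6 and 21.4 FPKM at 0, 1, 2, 3 and 4 h, and its RP levels were 6.27, 7.18, 6.62, 8.80 and 9.99 at 0, 0.5, 1, 2 and 4 h. These directions are not tested, since each rests on 1 library per time and replicate. Ifng, the gene of interferon-gamma, was at 7580 FPKM in replicate 1 and 2368 in replicate 2 in 4sU at 4 h, and 7340 and 1814 in total RNA. Any link between this gap and the directions above was not tested.

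**Figure D4:**
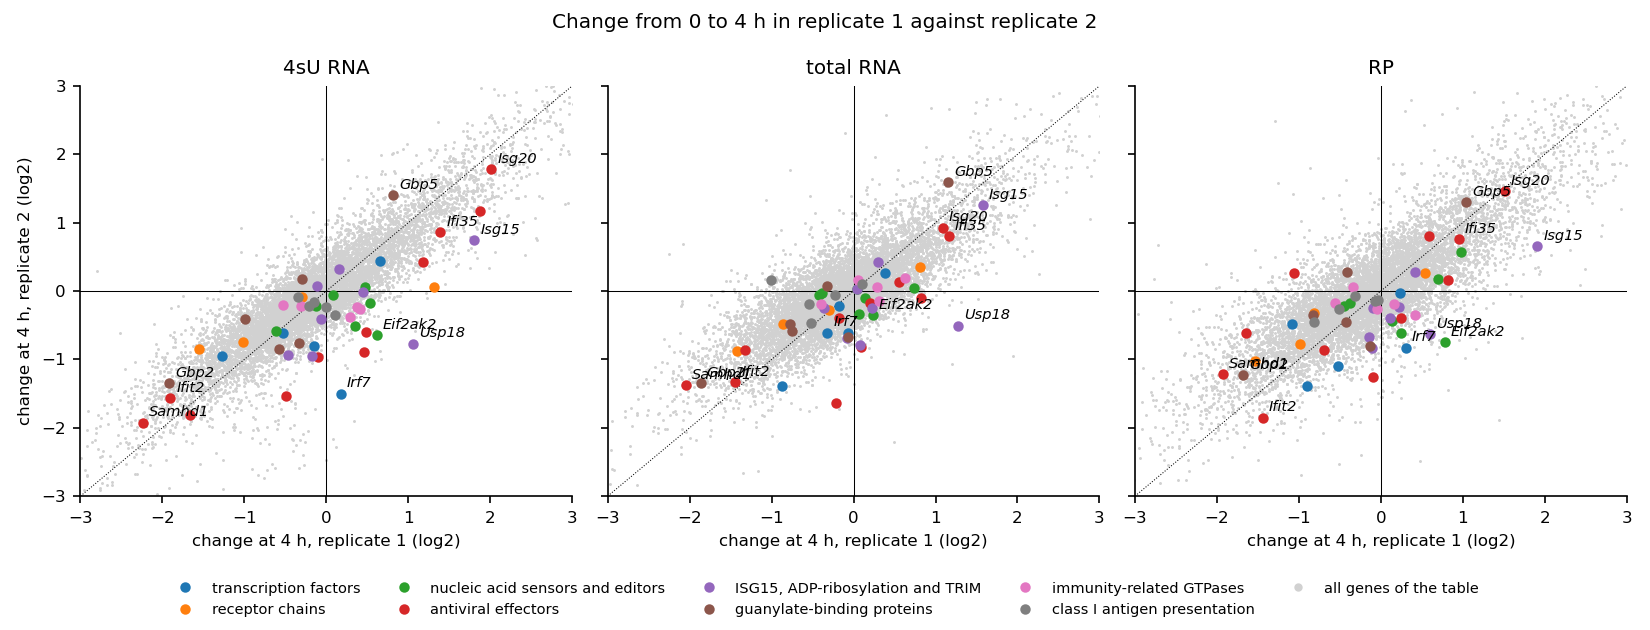
Change from 0 to 4 h in replicate 1 (x) against replicate 2 (y), log2(FPKM + 1), in 4sU, total RNA and RP, members as coloured points over all genes in grey (axes from -3 to 3, so genes beyond are not shown). Members in the lower right quadrant, 13 in 4sU, 10 in total RNA and 11 in RP, went up in replicate 1 and down in replicate 2.

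In the first hour no member was called. At 1 h limma called 0 of 50 members in 4sU (against 0.183% of all genes) and 0 of 48 in RP (against 0.140%), with 2 members in each at an unadjusted p below 0.05. With the replicate block Isg20 (1.84, adjusted p = 0.00322) and Samhd1 (-1.04, adjusted p = 0.00931) were called in 4sU, beside 5.21% of all genes higher and 5.42% lower, and 0 in RP, beside 1.97%. The largest changes at 1 h in 4sU by role were those of Isg20 and Isg15 (0.74 ± 0.96), Gbp3 (0.62 ± 0.53), Ifih1 (0.56 ± 0.23), Irf1 (0.54 ± 0.29), Ifnar2 (-0.48 ± 0.23), Igtp (-0.42 ± 0.50) and Tap2 (-0.29 ± 0.26). In RP they were those of Isg20 (0.84 ± 0.45), Tgtp1 (0.80 ± 0.22), Irf2 (-0.72 ± 0.21), Isg15 (0.62 ± 0.93), Gbp3 (0.55 ± 0.29), Nlrc5 (-0.46 ± 0.24), Adar (-0.43 ± 0.27) and Ifnar2 (-0.36 ± 0.19). In the short-label pair, 0 of 38 members at 5 FPKM or more differed 2-fold between 0 and 0.5 h, beside 0.755% of genes higher and 0.196% lower.

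Between 1 and 4 h, 2 of 50 members rose in 4sU (against 11.9% of all genes) and 7 fell (against 14.7%), and 1 of 48 rose in RP (against 7.65%) and 3 fell (against 6.42%). With the replicate block these became 5 and 13 (all genes 22% and 32.2%) and 7 and 11 (17.5% and 19.3%). Stat2, the partner of Irf9 in ISGF3, showed the later rise in 4sU: it was 26.0 and 19.6 FPKM at 0 h, 15.9 and 17.3 at 1 h, and 41.5 and 27.0 at 4 h. Both libraries at 1 h lay below, and both at 4 h above, those at 0 h. Its difference between 4 and 1 h was 0.97 ± 0.25 (adjusted p = 0.0368) and was lost without replicate 1 at 4 h or either 1 h library (up to 0.129).

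Changes at 4 h did not differ detectably between kinds of library. The change in RP beyond that in total RNA was called by limma for 0 of 50 members (0% of all genes) and ranged from -0.58 ± 0.48 for Irf1 to 0.53 ± 0.78 for Ifit3, with 0 members at an unadjusted p below 0.05. The change in 4sU beyond that in total RNA was likewise called for 0 of 50 (0%), with 0 at an unadjusted p below 0.05, and ranged from -0.64 ± 0.31 for Sp100 to 1.51 ± 0.78 for Bst2. The replicate block also gave 0 in both, beside 0.0322% and 1.87% of all genes. The errors are as large as many of the changes, so differences of that size were not detectable.

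At 0 h the kinds of library differed by gene. The RP values follow coding length and the RNA values the whole exon length, so a ratio between them is read against the median of all genes, 1.27 on the log2 scale for RP over total RNA and 0.52 for 4sU over total RNA. Neither this median nor scaling removes the share of these lengths that is particular to a gene in RP over total RNA. Exon and coding lengths were 7396 and 1083 bases for Irf2, 903 and 516 for Bst2, and 8493 and 6028 for Nlrc5. The part of length in the RP ratios was not tested. For RP over total RNA, 36 of 50 members were called higher (against 71.1% of all genes) and 1 lower (against 3.17%), and with the replicate block 44 and 1 (against 77.9% and 4.11%). After median-of-ratios scaling, which sets the median gene near 0, 7 of 51 were higher (against 22.9%) and 4 lower (against 23.1%). Irf2, Bst2, Samhd1, Irgm1, Sp100, Zbp1 and Gbp5 were higher in both fits, and Nlrc5 was lower in both. Irf2 was 16.7 and 23.3 FPKM in total RNA and 232 and 247 in RP, a ratio of 3.53 ± 0.22 (adjusted p = 6.59e-06; 2.13 ± 0.25 after scaling). The mean ratio of Isg15 was higher still, at 3.85 ± 0.97 (adjusted p = 0.00627), but was not called after scaling (2.69 ± 1.00, 0.0556). Nlrc5 was lower in RP, with 39.3 and 22.5 FPKM in total RNA and 9.81 and 6.45 in RP. Its ratio was -1.78 ± 0.30 (adjusted p = 0.000707), at percentile 0.594 of all genes.

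For 4sU over total RNA at 0 h, 13 of 50 members were called higher (against 40.4% of all genes) and 2 lower (against 8.30%). The replicate block gave 28 and 6 (against 55.2% and 12.4%), and scaling 7 higher (against 16.1%) and 7 lower (against 17.0%). Irf1 had the highest ratio: it was 246 and 207 FPKM in 4sU and 70.0 and 44.6 in total RNA, a ratio of 1.99 ± 0.32 (adjusted p = 0.00192) at percentile 99.5 of all genes. Irf9 followed at 1.72 ± 0.39 (0.00760), a call lost without replicate 2 of total RNA (0.0560). B2m was at -1.71 ± 0.48 (0.0196), with 660 and 472 FPKM in 4sU, and was lost without replicate 2 of 4sU or replicate 1 of total RNA (up to 0.119). Bst2 was at -1.54 ± 0.55 (0.0466), a call lost whichever of the 4 libraries was left out (0.0577 to 0.216). Irf1, Irf9, Irgm2, Trim21, Irgm1, Ifnar1 and Ifnar2 were higher, and B2m and Bst2 lower, in both fits.

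**Figure D5:**
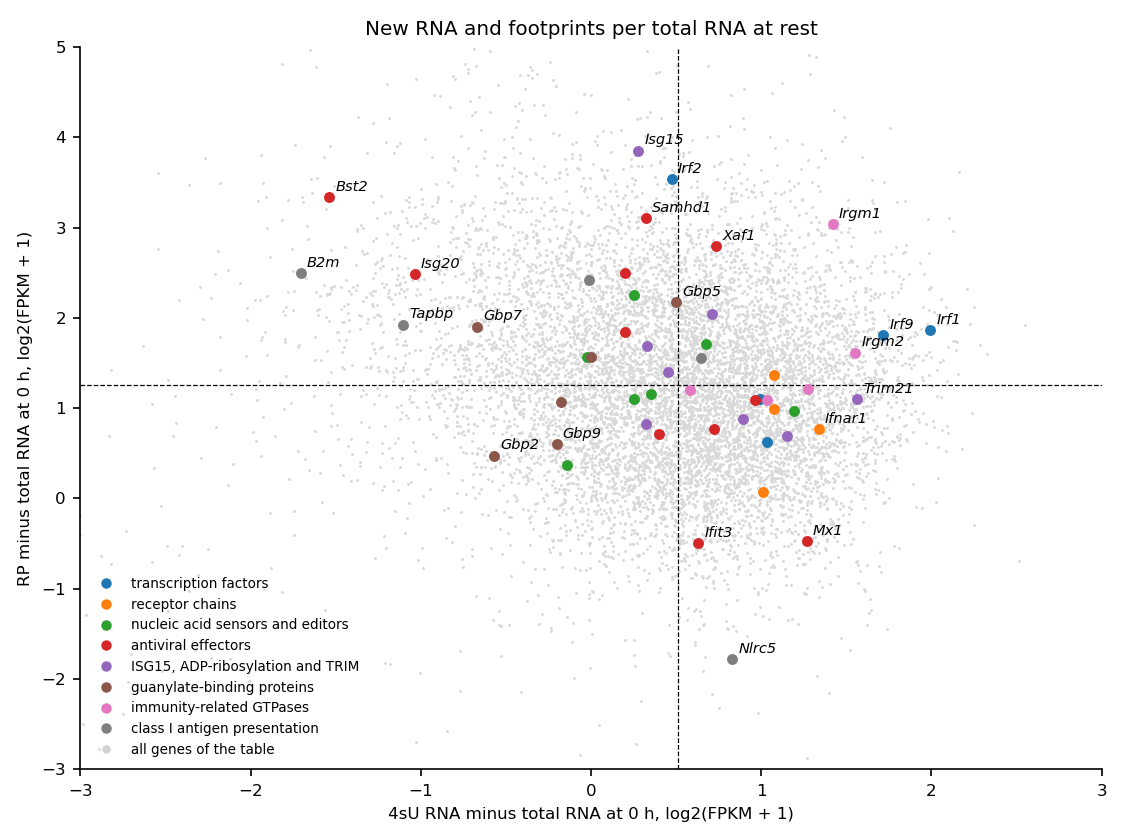
Ratio of 4sU to total RNA (x) against ratio of RP to total RNA (y) at 0 h for each member, log2, with dashed lines at the medians of all genes. Irf1 and Irf9 lie far to the right, B2m and Bst2 to the left, and Nlrc5 at the bottom.

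Genes around these members, in 4 lists of the same pathways, moved as follows at 4 h. The shares called among all genes were 14.4% higher and 18.9% lower in 4sU, 6.47% and 7.02% in total RNA, and 12.1% and 12.9% in RP. Of 17 signalling genes (ligands, kinases and inhibitors), 5 rose and 4 fell in 4sU, 3 and 1 in total RNA, and 3 and 4 in RP. Ifng was 101 and 45.4 FPKM in 4sU at 0 h, 5211 and 737 at 1 h, and 7580 and 2368 at 4 h, and rose by 5.94 in 4sU (adjusted p = 0.0119), 6.76 in total RNA (0.00474) and 7.32 in RP (0.00518). Socs1, the feedback inhibitor of interferon receptor kinases, went from 23.8 and 34.5 to 173 and 190 FPKM in 4sU and rose by 2.62 (0.00286), 2.69 (0.00541) and 2.42 (0.005) in the 3 kinds. Of 8 genes of sensing upstream of type I interferon, 1 rose in 4sU (Ticam1, 0.62), 0 in total RNA and 2 in RP (Traf6, 0.97, and Ticam1, 0.66), and 0 fell. Of 15 immunoproteasome and class I chaperone or heavy chain genes, 1 rose and 2 fell in 4sU (Canx, 0.84, and Psmb9, -0.73), 0 changed in total RNA and 1 fell in RP (Psmb9, -0.96). Of the other interferon-stimulated genes, 1 rose and 11 fell of 48 in 4sU, 2 and 3 of 47 in total RNA, and 2 and 7 of 49 in RP. Ifi203, a DNA-binding protein of the p200 family, fell in 4sU by 2.51 (adjusted p = 0.00164), in total RNA by 2.24 and in RP by 2.49, and Cd274, which encodes PD-L1, rose by 1.92 (0.00710), 1.98 and 2.88. With the replicate block the 4 lists had 5, 3, 5 and 8 rises and 4, 1, 3 and 20 falls in 4sU, beside 23.3% and 35.4% of all genes, and the last list had 6 and 14 in total RNA and 6 and 15 in RP. Under median-of-ratios scaling the 4 lists had 5, 2, 1 and 2 rises and 3, 0, 0 and 7 falls in 4sU.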

How the data were processed

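The authors deposited FPKM values, with 2 decimals, of 9420 genes in 24 libraries of 4sU-labelled RNA, total RNA and RP. The submitters' processing notes name featureCounts, Subread 1.4.6-p3 and GRCm38. The aligner, annotation, strand setting and gene selection are among the steps not given in the sources used here. Every gene reached about 1 FPKM in some library of each kind, so genes silent in 1 kind are not measured. Of the identifiers, 9412 matched a symbol in GENCODE M21. Changes were tested with limma 3.58.1 (R 4.3.3) on log2(FPKM + 1), which understates changes of low genes, with a trended prior variance, on genes with a mean of at least 1 FPKM, each kind of library fitted alone with all its times. P-values were adjusted by Benjamini-Hochberg over all genes in each of 11 tests, and called below 0.05. A single-library time was assumed to vary like the replicated ones. Ratios between kinds were fitted in 1 model over both. The method was tested on simulated data.

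Members are counted by role. In each comparison and role the text names called members (up to 3 with the largest change) or, where none was called, the 1 with the largest change, and it follows a set list of members throughout; of each pathway list it names the 2 called genes with the largest change. Others named were chosen after their values were seen. The members and all lists were chosen with earlier results of these data known. Replicate numbers paired the libraries: deviations of same-numbered libraries correlated at 0.307 to 0.790 (median 0.599) over 28 pairs of groups, a pairing seen in the data and not stated in the labels.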

Additional observations from a re-analysis of the deposited data

Results flagged for a closer look

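The change from 0 h differed between 4 h and 1 h for 9 members in 4sU and 4 in RP, by limma's test of the difference between those times (log2 scale, 2 libraries per time). In 4sU 2 of 50 were positive, beside 11.9% of all genes, and 7 negative, beside 14.7%, and in RP 1 of 48 was positive, beside 7.65%, and 3 negative, beside 6.42%. Without the replicate block, members were thus called no more often than genes in general. With it, 7 of 48 were positive in RP, beside 17.5%, and 11 negative, beside 19.3%. Without the block, the difference called in 4sU was positive for Ifi35 (1.41) and Stat2 (0.97) and negative for Gbp2 (-1.44), Ifit2 (-1.39), Sp100 (-1.27), Irf1 (-1.12), Ifnar1 (-1.11), Samhd1 (-1.04) and Irf2 (-0.76). In RP it was positive for Gbp5 (1.11) and negative for Gbp2 (-1.79), Samhd1 (-1.36) and Tgtp1 (-0.94). The 4 RP calls were lost whichever of the 4 libraries was left out. In 4sU, Irf1 and Irf2 were lost whichever library was left out, Sp100 without replicate 2 at 1 h, Samhd1 and Ifit2 without replicate 1 at 4 h or replicate 2 at 1 h, Gbp2 without either 4 h library or replicate 1 at 1 h, and Ifi35, Ifnar1 and Stat2 without replicate 1 at 4 h or either 1 h library.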

How the results depend on the processing

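Depth is unknown for 13 of the 24 libraries, 2 libraries per group limit the precision, and genes near 1 FPKM rest on few reads. The single-gene calls counted below are a part of all member calls. They hold every call of a change over time. Of the ratios at 0 h they hold only those called both without and with median-of-ratios scaling, which scaling could thus not remove. None of the calls counted changed direction under any alternative run. Outside them direction did change. For RP over total RNA at 0 h, 5 of the 6 GBPs were called higher and 0 lower. After scaling 1 was higher and 2 were lower. Of 53 single-gene calls, all were kept under a pseudocount of 0.5, no filter, a mean of at least 5 FPKM and the replicate block; 52 under a pseudocount of 5 and under 1 prior variance; 49 under median-of-ratios scaling; and 105 of 212 when 1 library was left out. The replicate block, for which the pairing is seen in the data only, raised the members called from 0 to 2 (4sU 1 h), 9 to 21 (4sU 4 h), 9 to 18 (4sU 4 h against 1 h), 6 to 15 (total RNA 4 h), 8 to 19 (RP 4 h), 4 to 18 (RP 4 h against 1 h) and 15 to 34 (4sU over total RNA at 0 h), and left 0 for RP at 1 h and for both tests between kinds. Scaling lowered RP over total RNA at 0 h from 37 to 11. With 1 library left out, members called ranged from 3 to 10 (4sU 4 h), 1 to 7 (4sU 4 h against 1 h), 0 to 5 (total RNA 4 h), 1 to 3 (RP 4 h), 0 to 0 (RP 4 h against 1 h), 30 to 36 (RP over total RNA at 0 h) and 8 to 13 (4sU over total RNA at 0 h), and stayed at 0 for the others. A lone library was then assumed to vary like the other groups.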
